A study of Mus musculus with 32 samples.

Results

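The heat shock chaperones described here are 10 genes, Dnajb1, Dnaja1, Hspa8, Bag3, Hspb1, Hsp90aa1, Hsp90ab1, Chordc1, Hspd1 and Hspe1, out of 25282 distinct row names in 4 tables of read counts per gene. They were chosen by symbol, with earlier results of these data known. All 10 had a row in 3 of the tables, and 9 had a row in the table of HSCs with total loss of PRDM16 in fetal liver, where Bag3 was not analysed here. The mRNA came from 32 mouse libraries in 10 groups, and PRDM16 is a zinc finger transcription factor made in a full-length form (f-PRDM16) and a short form (s-PRDM16).

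The leukaemia table held MLL-AF9 cells, that is leukaemic cells carrying a fusion of the MLL and AF9 genes, sorted from moribund mice and sequenced without culture. Its 4 groups of 3 libraries were PRDM16-KO cells overexpressing s-PRDM16 (KO+s-PRDM16), PRDM16-KO cells overexpressing f-PRDM16 (KO+f-PRDM16), PRDM16-KO cells labelled EV in place of either form (KO+EV), and wild-type cells labelled EV (WT+EV). The other 3 tables held haematopoietic stem cells (HSCs) sorted as Lin-cKit+Sca1+CD48-. In adult bone marrow, 4 libraries labelled PRDM16-KO stood against 4 wild-type libraries. In fetal liver, 3 PRDM16-KO libraries stood against 3 wild-type libraries, and, counted separately, 3 libraries labelled 47bpKO, which express s-PRDM16 only, stood against 3 wild-type libraries labelled 47bpWT. The column names of the adult marrow and total-knockout fetal tables carry the letters VAV, whose meaning the labels do not give. The replicates are called independent, but nothing says which came from separate mice or transductions, and a p-value here therefore speaks of the variation among these libraries, which may be technical.

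Heat shock chaperones bind proteins that are unfolded, newly made or part of large complexes, and help them to fold, assemble or be degraded. HSP70 proteins such as Hspa8 take up clients from J-domain proteins such as Dnajb1 and Dnaja1, HSP90 proteins act later on clients such as kinases and steroid receptors, and Hspd1 with its lid Hspe1 folds proteins inside mitochondria. Many of these genes are switched on by the transcription factor HSF1, which binds heat shock elements, inverted repeats of the bases GAA, when misfolded protein accumulates.

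Promoter sequences are shown because they tell the members apart by a property the counts do not hold. RefSeq on GRCm38.p6 gave 11 promoter windows for 7 of the 10 members, each of 300 bases (250 before to 50 after the annotated start); Hspa8, Hsp90aa1 and Hsp90ab1 are named only. A heat shock element was searched on both strands as 2 inverted units, GAANNTTC or TTCNNGAA, and as 3 alternating units (GAA, TTC, GAA or TTC, GAA, TTC) with 2 bases between neighbours, which contains the shorter motif. At least 1 window held 2 units in 6 of the 7 members, Dnaja1, Bag3, Hspb1, Chordc1, Hspd1 and Hspe1, whereas neither window of Dnajb1 held them. The 3-unit form stood in windows of Hspd1, Hspe1 and Chordc1. Among all 32851 promoter windows of this length, 15.1% held 2 units and 0.603% held 3. These shares are per window, whereas the members were counted per gene over 1 or more windows, so they are not like for like. Hspd1 and Hspe1 were each counted for an element that they share. Elements are in capitals in the stretches printed here, each read 5′ to 3′ on the gene's own strand. Hspe1 is at chr1:55087948-55088147 (plus strand, bases −200 to −1 from the start), Hspb1 at chr5:135887719-135887918 (plus strand, −200 to −1), Dnaja1 at chr4:40722268-40722467 (plus strand, −200 to −1) and Chordc1 at chr9:18292137-18292285 (plus strand, −130 to 19), where the matches run on to base 41. Dnajb1, at chr8:83607975-83608174 (plus strand, −200 to −1), is the member without an element. The element of Bag3 lay at bases 43 to 50 after its start and is not printed. Hspd1 is shown as a short stretch at chr1:55088049-55088086 (minus strand, −154 to −117 from the second of its 2 annotated starts), because it is the reverse complement of part of the Hspe1 stretch. From that start the 2 genes are transcribed away from each other over the same element. The window of the other Hspd1 start, which puts this element inside the Hspd1 span, held none.
Hspe1 promoter: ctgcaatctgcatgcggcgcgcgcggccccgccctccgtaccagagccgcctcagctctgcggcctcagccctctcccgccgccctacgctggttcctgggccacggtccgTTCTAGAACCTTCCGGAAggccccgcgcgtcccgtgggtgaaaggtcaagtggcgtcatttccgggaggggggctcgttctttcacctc
Hspd1 promoter: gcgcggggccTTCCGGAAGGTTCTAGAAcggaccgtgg
Hspb1 promoter: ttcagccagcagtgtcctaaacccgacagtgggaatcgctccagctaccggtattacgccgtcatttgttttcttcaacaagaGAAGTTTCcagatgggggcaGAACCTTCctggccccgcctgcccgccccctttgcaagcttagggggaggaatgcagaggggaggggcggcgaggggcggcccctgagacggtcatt
Dnaja1 promoter: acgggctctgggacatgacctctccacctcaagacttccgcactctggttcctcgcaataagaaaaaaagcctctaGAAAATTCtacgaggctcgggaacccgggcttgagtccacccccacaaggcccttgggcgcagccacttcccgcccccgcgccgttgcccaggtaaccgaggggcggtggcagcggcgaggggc
Chordc1 promoter: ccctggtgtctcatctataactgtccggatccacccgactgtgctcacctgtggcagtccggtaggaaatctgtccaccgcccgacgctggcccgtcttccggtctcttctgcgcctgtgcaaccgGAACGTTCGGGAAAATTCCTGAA
Dnajb1 promoter: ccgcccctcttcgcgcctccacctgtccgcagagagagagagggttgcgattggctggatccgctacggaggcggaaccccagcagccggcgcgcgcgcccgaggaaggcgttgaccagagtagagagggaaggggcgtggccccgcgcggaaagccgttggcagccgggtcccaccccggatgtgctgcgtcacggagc
A match to these letters is a description of the sequence and not evidence of binding.

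Library totals were 16353584 to 23785307 counts in leukaemia cells, 22490805 to 29343602 in adult marrow HSCs, 26715538 to 33246080 in the total-knockout fetal table and 35503288 to 44952448 in the f-PRDM16-knockout fetal table. Levels are given as counts per 1000000 counts of the library total (CPM), as mean ± SD where averaged. Prdm16 itself, read first as a check on the labels, averaged 235 ± 58.0 CPM in KO+s-PRDM16, 273 ± 53.5 in KO+f-PRDM16, 0.0480 ± 0.0476 in KO+EV and 0.733 ± 0.305 in WT+EV leukaemia cells (n = 3 each). In adult marrow HSCs it averaged 30.1 ± 13.5 CPM in libraries labelled KO and 31.0 ± 18.7 in WT libraries (n = 4 each), so the count did not separate the labelled groups; which part of the gene is deleted is not given in the sources used here. In fetal liver it averaged 19.8 ± 7.78 CPM in KO and 34.5 ± 7.80 in WT HSCs of the total-knockout table, and 7.82 ± 1.81 in 47bpKO and 23.0 ± 10.9 in 47bpWT HSCs (n = 3 each); neither difference passed. In each of the 6 HSC groups all 12 HSC markers had means over 1 CPM. Erythroid markers summed to 2318 to 3642 CPM in KO and 3114 to 3721 CPM in WT HSCs of the total-knockout fetal table. HSC markers summed to less there, 1345 to 1535 CPM in KO and 1561 to 1930 CPM in WT HSCs. In the marrow and 47bp groups erythroid markers summed to 79.7 to 430 CPM, and the globin rows held 0 counts. Granulocyte markers were also read in the sorted HSCs: all 13 were over 1 CPM in the 4 fetal groups, and their sums are given beside the fetal results. In marrow HSCs they summed to 371 to 1840 CPM in libraries labelled KO and 558 to 716 CPM in WT libraries. In leukaemia cells all 13 were over 1 CPM in KO+s-PRDM16, KO+EV and WT+EV and 12 in KO+f-PRDM16. Their summed level in leukaemia was 54456 CPM in KO+EV replicate 3, against 13132 and 13146 in the other KO+EV libraries, 24122 to 27023 in KO+s-PRDM16, 12709.8 to 17889.6 in KO+f-PRDM16 and 10203 to 17676 in WT+EV. The result without KO+EV replicate 3 is therefore given for members and named chaperone genes whose call it changed, or for the count that holds them. In bulk samples fewer cells of a type and less RNA per cell cannot be told apart.

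In MLL-AF9 leukaemia cells 3 partners of HSP70 rose and both mitochondrial chaperones fell when s-PRDM16 was overexpressed in PRDM16-KO cells. In these add-backs Prdm16 averaged 235 CPM with s-PRDM16 and 273 CPM with f-PRDM16, far above the 0.733 CPM of WT+EV cells. Dnajb1, Dnaja1 and Bag3, which work with HSP70, were 1.60-fold, 2.03-fold and 1.69-fold higher in KO+s-PRDM16 than in KO+EV cells, and Hspd1 and Hspe1, the mitochondrial folding chamber and its lid, were at 0.565 and 0.650 of their KO+EV level. With f-PRDM16, Dnajb1 rose and no other member passed the test. Loss of PRDM16 alone was accompanied by a fall of Dnajb1, a call near the threshold, and no other member passed. Dnaja1 had a larger log2 difference in that comparison, −0.94, which did not pass. Each test was edgeR's two-sided quasi-likelihood test with Benjamini-Hochberg adjustment over the 12958 genes tested and a threshold of 0.05. Hspb1, with 7 counts over the 12 libraries, was not tested, so 9 members were. In KO+s-PRDM16 against KO+EV cells 3 of the 9 members rose and 2 fell, where 32.4% of all genes changed (15.9% rose and 16.6% fell). In KO+f-PRDM16 against KO+EV cells 1 rose and 0 fell, where 11.3% of all genes changed (6.88% rose and 4.39% fell). In KO+EV against WT+EV cells 0 rose and 1 fell, where 2.1% changed (0.903% rose and 1.2% fell). The members' share with f-PRDM16 was near that of all genes, and the shares in the other comparisons were not tested against theirs. The 3 comparisons share the KO+EV libraries, so their values are not independent of each other.

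**Figure D1:**
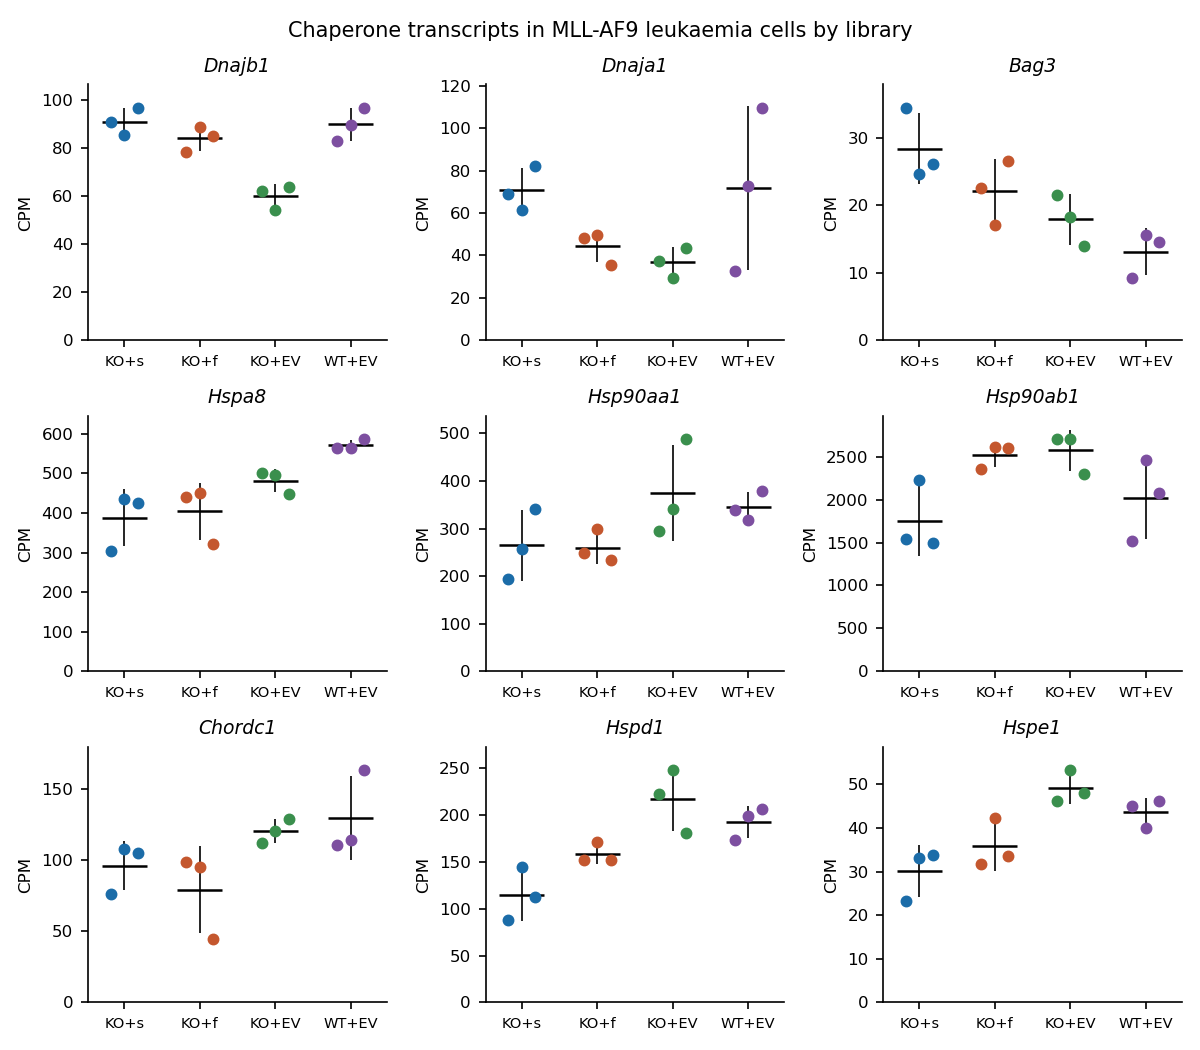
Level of 9 chaperones in the 12 leukaemia libraries, in CPM, with a panel for each gene; points are libraries, lines are group means and bars are SD (n = 3). In the Dnajb1 panel the KO+EV points lie at 54.3 to 63.9 CPM and every other library lies at 78.5 CPM or more.

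Dnajb1 encodes the stress-inducible J-domain protein that stimulates HSP70 and takes part in shutting HSF1 off again. It had 90.9, 85.6 and 96.9 CPM in KO+s-PRDM16, 78.5, 88.9 and 85.3 CPM in KO+f-PRDM16, 62.3, 54.3 and 63.9 CPM in KO+EV and 83.2, 90.0 and 96.9 CPM in WT+EV cells. The 3 KO+EV libraries were below all 9 others, and the other 3 groups overlapped. On the log2 scale the difference from KO+EV was 0.68 ± 0.12 (SE) in KO+s-PRDM16 cells (adjusted p = 0.00204) and 0.45 ± 0.12 in KO+f-PRDM16 cells (adjusted p = 0.0371), and KO+EV differed from WT+EV by −0.55 ± 0.12 (adjusted p = 0.0450). The rise with s-PRDM16 passed without each of the 6 libraries in turn (highest adjusted p = 0.0119). The other 2 calls were near the threshold and passed in 1 of 6 such fits, the fit without KO+EV replicate 3: adjusted p without any other library was 0.0591 to 0.137 for f-PRDM16 and 0.0549 to 0.167 for KO+EV against WT+EV. They also missed the threshold with no low-count filter (0.0539 and 0.0538) and with only the 2 groups compared in the fit (0.0872 and 0.143).

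Dnaja1, a second J-domain partner of HSP70 that also handles proteins on their way to mitochondria, had 68.8, 61.3 and 82.1 CPM in KO+s-PRDM16, 48.2, 49.5 and 35.6 CPM in KO+f-PRDM16, 37.4, 29.3 and 43.6 CPM in KO+EV and 32.5, 72.8 and 109.6 CPM in WT+EV cells. Every KO+s-PRDM16 library lay above every KO+EV and KO+f-PRDM16 library, and the WT+EV libraries spread more widely than those of any other group. The log2 difference between KO+s-PRDM16 and KO+EV was 1.02 ± 0.36 (adjusted p = 0.0489). That call was lost without any of the 6 libraries other than KO+EV replicate 3 (adjusted p = 0.0567 to 0.151) and with no low-count filter (0.0878). Between KO+f-PRDM16 and KO+EV the difference was 0.23 (adjusted p = 0.700). Between KO+EV and WT+EV it was −0.94 ± 0.36 (adjusted p = 0.197), and −1.30 with adjusted p = 0.0410 without WT+EV replicate 1, the low WT+EV library.

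Bag3 encodes a nucleotide exchange factor that couples HSP70 to autophagy. Its level was 34.4, 24.6 and 26.1 CPM in KO+s-PRDM16, 22.6, 17.1 and 26.5 CPM in KO+f-PRDM16, 21.5, 18.3 and 14.01 CPM in KO+EV and 9.17, 15.6 and 14.6 CPM in WT+EV cells. All KO+s-PRDM16 libraries were above all KO+EV and WT+EV libraries, and KO+f-PRDM16 overlapped KO+EV. The log2 difference from KO+EV was 0.76 ± 0.24 with s-PRDM16 (adjusted p = 0.0336) and 0.28 with f-PRDM16 (adjusted p = 0.478), and KO+EV differed from WT+EV by 0.46 (adjusted p = 0.353). The call with s-PRDM16 was lost without KO+EV replicate 2 (0.0851), KO+EV replicate 3 (0.0972), KO+s-PRDM16 replicate 1 (0.140) or KO+s-PRDM16 replicate 3 (0.0591).

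Hspa8, the constitutive HSP70 that Dnajb1, Dnaja1 and Bag3 serve, did not pass in any leukaemia comparison. It had 305, 435 and 425 CPM in KO+s-PRDM16, 441, 451 and 321 CPM in KO+f-PRDM16, 501, 497 and 447 CPM in KO+EV and 565, 563 and 588 CPM in WT+EV cells. All KO+s-PRDM16 libraries were below all KO+EV libraries, which in turn were below all WT+EV libraries. The log2 difference from KO+EV was −0.22 with s-PRDM16 (adjusted p = 0.308) and −0.28 with f-PRDM16 (adjusted p = 0.267), and KO+EV differed from WT+EV by −0.22 (adjusted p = 0.501).

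Hspd1 encodes the mitochondrial HSP60 that folds imported proteins in a closed chamber. It had 87.6, 145 and 113 CPM in KO+s-PRDM16, 152, 172 and 152 CPM in KO+f-PRDM16, 223, 248 and 181 CPM in KO+EV and 173, 199 and 206 CPM in WT+EV cells. The groups with s-PRDM16 and f-PRDM16 did not overlap each other and both lay below KO+EV. The log2 difference from KO+EV was −0.82 ± 0.17 with s-PRDM16 (adjusted p = 0.00365), and it passed without each of the 6 libraries in turn (highest adjusted p = 0.0173). With f-PRDM16 it was −0.48 ± 0.17 (adjusted p = 0.0816), and KO+EV differed from WT+EV by 0.19 (adjusted p = 0.592).

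Hspe1, the HSP10 lid of that chamber, had 23.3, 33.2 and 33.8 CPM in KO+s-PRDM16, 31.6, 42.3 and 33.5 CPM in KO+f-PRDM16, 46.2, 53.3 and 48.0 CPM in KO+EV and 44.9, 39.9 and 46.1 CPM in WT+EV cells. Both add-back groups were below all KO+EV libraries and overlapped each other. The log2 difference from KO+EV was −0.62 ± 0.16 with s-PRDM16 (adjusted p = 0.0133), which came to 0.05005 without KO+s-PRDM16 replicate 1 and passed in the other 5 of 6 fits that left out a library. With f-PRDM16 it was −0.49 ± 0.16 (adjusted p = 0.0735, and 0.0451 in DESeq2), and KO+EV differed from WT+EV by 0.20 (adjusted p = 0.566). Hspd1 and Hspe1 overlap on opposite strands by 96 bases in RefSeq, and whether the counting used strand is not given in the sources used here. RefSeq names 23 pseudogene copies of Hspd1, 7 of Hspe1 and 1 of Dnaja1, none with a row in the tables, so how reads shared with copies were counted is uncertain.

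None of the HSP90 members passed in edgeR with all libraries, all 4 groups and no replicate block in the fit. Hsp90ab1, the constitutive HSP90, averaged 1754 ± 415 CPM in KO+s-PRDM16, 2519 ± 144 in KO+f-PRDM16, 2572 ± 235 in KO+EV and 2016 ± 475 in WT+EV cells. All 3 KO+s-PRDM16 libraries, at 1491 to 2232 CPM, were below the KO+EV libraries at 2301 to 2708 CPM. The log2 difference was −0.46 ± 0.19 (adjusted p = 0.0864), and −0.64 with adjusted p = 0.0314 without KO+s-PRDM16 replicate 2. Hsp90aa1, the inducible HSP90, averaged 265 ± 74.0 CPM in KO+s-PRDM16, 260.1 ± 34.0 in KO+f-PRDM16, 375 ± 101 in KO+EV and 346 ± 30.9 in WT+EV cells. Its log2 difference from KO+EV was −0.43 with s-PRDM16 (adjusted p = 0.187) and −0.57 ± 0.24 with f-PRDM16 (adjusted p = 0.135). Chordc1, an HSP90 co-chaperone with zinc-binding CHORD domains, averaged 96.2 ± 17.5 CPM in KO+s-PRDM16, 79.3 ± 30.4 in KO+f-PRDM16, 120.2 ± 8.33 in KO+EV and 129 ± 29.6 in WT+EV cells. Its 3 libraries with f-PRDM16, at 44.3 to 98.7 CPM, and its 3 with s-PRDM16, at 76.1 to 108 CPM, lay below the KO+EV range of 112 to 129 CPM. The log2 differences from KO+EV were −0.63 ± 0.28 for f-PRDM16 (adjusted p = 0.155) and −0.24 for s-PRDM16 (adjusted p = 0.540). Between KO+EV and WT+EV the 3 HSP90 members differed by −0.08 to 0.37 (adjusted p = 0.346 to 0.918).

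Hspb1, the small heat shock protein HSP27, was close to absent from these leukaemias, with 3 counts in KO+s-PRDM16 replicate 3, 4 counts in KO+f-PRDM16 replicate 3 and 0 counts in the other 10 libraries. A count of 0 allows up to 3 counts per library, so no difference was detectable at this depth.

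**Figure D2:**
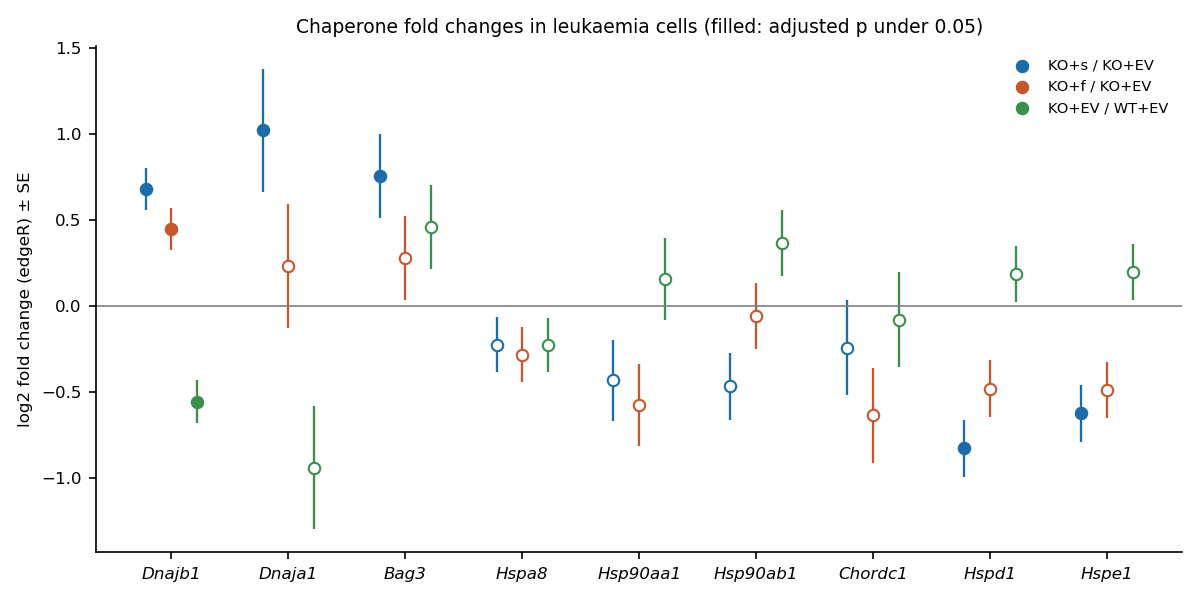
Log2 fold change of 9 chaperones in leukaemia cells for KO+s-PRDM16 against KO+EV, KO+f-PRDM16 against KO+EV and KO+EV against WT+EV; bars are SE and filled points have adjusted p under 0.05. Dnajb1, Dnaja1 and Bag3 lie at 0.68 to 1.02 and Hspd1 and Hspe1 at −0.82 and −0.62 with s-PRDM16, and Dnajb1 is the filled point in all 3 comparisons.

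Counted by range, 3 members lay wholly above (Dnajb1, Dnaja1 and Bag3) and 5 wholly below (Hspa8, Hsp90ab1, Chordc1, Hspd1 and Hspe1) the KO+EV libraries in KO+s-PRDM16 cells, where 51.1% of all genes did not overlap (20.9% above and 30.2% below). In KO+f-PRDM16 cells 1 lay above (Dnajb1) and 3 below (Chordc1, Hspd1 and Hspe1), where 34% of all genes did not overlap (18.2% above and 15.8% below). In KO+EV cells 1 lay above (Hspe1) and 2 below (Dnajb1 and Hspa8) the WT+EV libraries, where 23.2% did not overlap (10.7% above and 12.4% below). The number of members called with s-PRDM16 was 5, and it was 2 without KO+s-PRDM16 replicate 1 and 3 without KO+s-PRDM16 replicate 3 or KO+EV replicate 2.

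The add-backs were also set directly against each other. In KO+s-PRDM16 against KO+f-PRDM16 cells 0 of 9 members passed in edgeR and 0 in DESeq2, 1 (Dnaja1) had an unadjusted p under 0.05, and 3.81% of all genes passed in edgeR (2.05% higher and 1.76% lower). By unadjusted p in edgeR, Dnaja1 (0.0495) ranked 2906 of the 12958 genes, so a p under 0.05 was common among all genes. The log2 differences ran from −0.41 to 0.79 (adjusted p = 0.221 to 0.866). Dnaja1 had the widest, 0.79 ± 0.36 (adjusted p = 0.221), with every KO+s-PRDM16 library above every KO+f-PRDM16 library, and it passed with only these 2 groups in the fit (adjusted p = 0.0422). By range 1 member (Dnaja1) lay above and 2 (Hspd1 and Hsp90ab1) lay below, where 33.6% of all genes lay apart (9.61% above and 24% below). Hspd1 and Hsp90ab1 had lower levels in KO+s-PRDM16, with differences of −0.35 ± 0.17 (adjusted p = 0.238) and −0.41 ± 0.19 (adjusted p = 0.237). For Dnajb1 the difference was 0.23 ± 0.12 (adjusted p = 0.283) and for Bag3 0.48 ± 0.24 (adjusted p = 0.266). A pass with s-PRDM16 and none with f-PRDM16 is thus not a shown difference between the 2 forms.

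The other genes of the chaperone network were read from lists drawn up by role. Their counts stand beside the 15.9% of all genes that rose and the 16.6% that fell with s-PRDM16, and the 6.88% that rose and the 4.39% that fell with f-PRDM16, and no list was tested against those shares. Of 14 mitochondrial proteostasis genes tested, 5 fell, 1 rose and 8 did not pass in KO+s-PRDM16 against KO+EV cells, with a median log2 difference of −0.19 against −0.01 over all genes. Trap1, the mitochondrial HSP90, averaged 109.5 ± 19.3 CPM in KO+s-PRDM16 and 209 ± 7.44 CPM in KO+EV cells (log2 −0.85, adjusted p = 0.000799). Hspa9, the mitochondrial HSP70, averaged 251 ± 49.9 CPM in KO+s-PRDM16 and 468 ± 24.0 CPM in KO+EV cells (−0.81, adjusted p = 0.00176). The protease subunit Clpp averaged 18.98 ± 2.08 CPM in KO+s-PRDM16 and 35.6 ± 2.14 CPM in KO+EV cells (−0.82, adjusted p = 0.00153), whereas its unfoldase partner Clpx averaged 68.6 ± 2.74 CPM in KO+s-PRDM16 and 50.9 ± 6.34 CPM in KO+EV cells (0.52, adjusted p = 0.00650). Afg3l2, a subunit of the inner membrane AAA protease, fell by 0.49 (adjusted p = 0.00888). These 5 genes passed without each library in turn. With f-PRDM16, Htra2 (−0.57, adjusted p = 0.0148), Trap1 (−0.55, adjusted p = 0.0192) and Spg7 (−0.41, adjusted p = 0.0489) fell and none rose. That count of 3 was 1 without KO+EV replicate 3, KO+f-PRDM16 replicate 1 or KO+f-PRDM16 replicate 2, and 0 without KO+EV replicate 2.

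The cytosolic TRiC chaperonin is the ring that folds actin and tubulin, and prefoldin brings proteins to it. Of 14 TRiC and prefoldin genes tested with s-PRDM16, 5 fell, 1 rose and 8 did not pass (median −0.25). Cct3 averaged 181 ± 34.6 CPM in KO+s-PRDM16 and 354 ± 19.9 CPM in KO+EV cells (−0.89, adjusted p = 0.00130), and Cct8 averaged 278 ± 36.3 CPM in KO+s-PRDM16 and 452 ± 26.7 CPM in KO+EV cells (−0.62, adjusted p = 0.00452). Tcp1 fell by 0.72 (adjusted p = 0.00230) and Cct7 fell by 0.40 (adjusted p = 0.0285). The gene that rose was Pfdn5, a prefoldin subunit also known as a MYC-binding protein, with 125 ± 18.4 CPM in KO+s-PRDM16 and 83.9 ± 12.5 CPM in KO+EV cells (0.67, adjusted p = 0.00598). The count of 5 was 3 without KO+EV replicate 2, KO+EV replicate 3 or KO+s-PRDM16 replicate 1. With f-PRDM16 0 of 14 passed in edgeR and 2 fell in DESeq2, 4 were lower at an unadjusted p under 0.05, and the median was also −0.25. In that edgeR comparison Chordc1, at an unadjusted p of 0.0420, ranked 3501 of all 12958 genes, so a p under 0.05 was common.

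HSP90 co-chaperones went both ways with s-PRDM16: of 17 tested, 3 rose, a share near that of all genes, and 4 fell (median −0.16). Those that fell were Aarsd1 (−0.55, adjusted p = 0.00664), the HSP90 ATPase activator Ahsa1 (−0.70, adjusted p = 0.0118) and the immunophilins Fkbp4 (−0.64, adjusted p = 0.0148) and Fkbp5 (−0.58, adjusted p = 0.0299). Those that rose were Ahsa2, at 49.1 ± 0.616 CPM in KO+s-PRDM16 and 25.1 ± 2.99 CPM in KO+EV cells (1.06, adjusted p = 0.00133), Fnip1 (0.67, adjusted p = 0.00903) and Fnip2 (0.77, adjusted p = 0.0481). The count of 4 that fell was 1 without KO+s-PRDM16 replicate 1, and Fnip2 passed in none of the 6 fits that left out a library (adjusted p = 0.0572 to 0.145). With f-PRDM16 Ahsa2 rose (0.77, adjusted p = 0.0189), a call kept in 3 of 6 fits that left out a library (highest adjusted p = 0.0683). Ahsa1 fell (−0.70, adjusted p = 0.0303), a call kept in 1 of 6 such fits, the fit without KO+EV replicate 1 (highest adjusted p = 0.0774).

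Among other HSP70 partners, 1 of 26 rose and 5 fell with s-PRDM16 (median −0.11), and the share that fell was near that of all genes. Dnajb14, a J-domain protein of the endoplasmic reticulum membrane, averaged 14.1 ± 1.23 CPM in KO+s-PRDM16 and 8.11 ± 1.02 CPM in KO+EV cells (0.88, adjusted p = 0.00399). The genes that fell included Hspbp1, an exchange factor of HSP70 (−0.67, adjusted p = 0.0105). Dnajc9 (−0.45, adjusted p = 0.0143) and the ubiquitin ligase Stub1 (−0.47, adjusted p = 0.0221) also fell. The count of 5 was 2 without KO+EV replicate 2 or KO+s-PRDM16 replicate 1 and 3 without KO+s-PRDM16 replicate 2. With f-PRDM16 Dnajb14 rose (0.65, adjusted p = 0.0399), a call kept in 1 of 6 fits that left out a library.

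Heat shock factors and other heat-inducible genes gave no common direction. Of 15 tested with s-PRDM16, 3 rose and 1 fell (median −0.03), and with f-PRDM16 1 rose and 0 fell (median −0.20). Cryab, a small heat shock protein of the same family as Hspb1, had 12.5 to 14.3 CPM in KO+s-PRDM16 and 4.30 to 12.3 CPM in KO+f-PRDM16 cells, against 3, 3 and 6 counts in the KO+EV libraries. Its log2 difference from KO+EV was 6.11 ± 0.64 with s-PRDM16 (adjusted p = 0.000134) and 5.52 ± 0.64 with f-PRDM16 (adjusted p = 0.000917), and both passed without each library in turn. Hspa4l (0.62, adjusted p = 0.0235) and Dnajb4 (1.69, adjusted p = 0.0303) rose and Dnaja4 fell (−2.43, adjusted p = 0.0167) with s-PRDM16. The count of 3 that rose was 1 without KO+EV replicate 1, KO+EV replicate 2, KO+s-PRDM16 replicate 1 or KO+s-PRDM16 replicate 3. Hsf1, the factor itself, averaged 52.2 ± 2.55 CPM in KO+s-PRDM16, 54.2 ± 3.78 in KO+f-PRDM16, 65.1 ± 0.652 in KO+EV and 63.0 ± 8.33 in WT+EV cells, and did not pass against KO+EV with s-PRDM16 (−0.23, adjusted p = 0.177) or f-PRDM16 (−0.29, adjusted p = 0.148). Hspa1a, the inducible HSP70, had 4.08, 1.12 and 12.2 CPM in KO+s-PRDM16, 1.13, 0.496 and 0.183 in KO+f-PRDM16, 1.16, 0.143 and 1.47 in KO+EV and 0.611, 6.40 and 9.44 in WT+EV cells, so libraries of the same group differed many-fold. Its near-identical copy Hspa1b can take its reads, so both are uncertain. Hsph1, an HSP110 that recharges HSP70, did not pass with s-PRDM16 (−0.59, adjusted p = 0.172) or f-PRDM16 (−0.83, adjusted p = 0.107).

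Endoplasmic reticulum chaperones and unfolded protein response genes also split, with 4 of 18 higher and 5 lower with s-PRDM16 (median −0.39). Sdf2l1 had 54.6 to 72.4 CPM in KO+s-PRDM16 and 104 to 201 CPM in KO+EV cells (−1.06, adjusted p = 0.00588), and Creld2 (−0.93, adjusted p = 0.00923), Pdia4 (−0.83, adjusted p = 0.0123) and Pdia6 (−1.23, adjusted p = 0.0172) fell too. Pdia6 reached 1059 CPM in KO+EV replicate 3, against 376 and 430 in the other KO+EV libraries, and its difference was −0.53 without that library. The J-domain protein gene Dnajb9 averaged 85.2 ± 13.1 CPM in KO+s-PRDM16 and 33.8 ± 8.37 CPM in KO+EV cells (1.41, adjusted p = 0.0156). The stress regulators Ddit3 (1.29, adjusted p = 0.0212) and Atf4 (0.58, adjusted p = 0.0323) rose, as did Herpud1 (0.48, adjusted p = 0.0431). The count of 4 that rose was 0 without KO+EV replicate 2, 1 without KO+EV replicate 1 or KO+s-PRDM16 replicate 1 and 2 without KO+s-PRDM16 replicate 3, and the count of 5 that fell was 2 without KO+s-PRDM16 replicate 1. With f-PRDM16 0 of 18 rose and 3 fell, Sdf2l1, Pdia4 and Creld2 (−0.82 to −0.92), a count that was 0 without KO+EV replicate 3. In KO+EV against WT+EV cells 0 of the 104 tested genes of the 6 chaperone lists passed in edgeR and 4 did in DESeq2 (2 in each direction), while 16 were higher and 8 lower at an unadjusted p under 0.05. In that edgeR comparison Dusp1, at an unadjusted p of 0.0496, ranked 2336 of all 12958 genes, so a p under 0.05 was common. Of 34 genes chosen from these lists by the smallest p with s-PRDM16, 19 passed without each of the 6 libraries in turn. Without KO+EV replicate 3, Stub1, Fkbp5 and Cct7 were among those that no longer passed (adjusted p = 0.0712, 0.1000 and 0.0949).

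**Figure D3:**
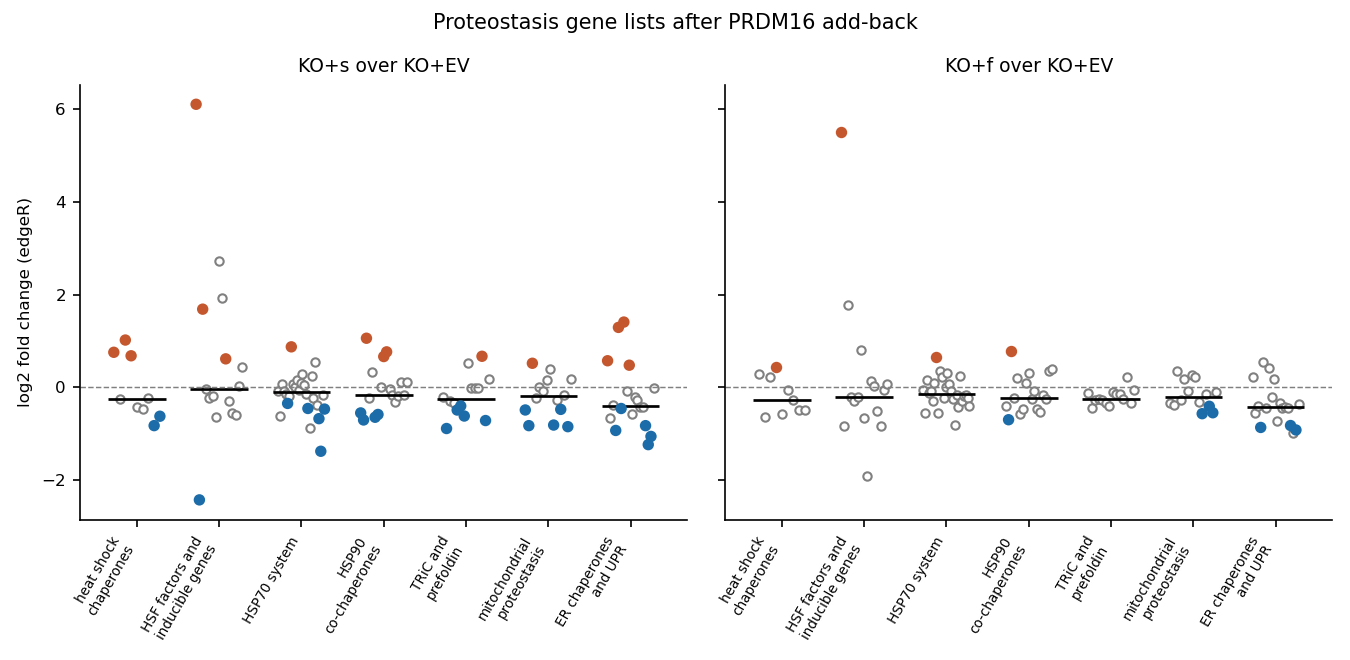
Log2 fold change of each tested member and each tested gene of the chaperone lists, with KO+s-PRDM16 against KO+EV on the left and KO+f-PRDM16 against KO+EV on the right. Filled orange points rose and filled blue points fell (adjusted p under 0.05), open points did not pass and lines are list medians. Chaperone lists have medians between −0.43 and −0.03.

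Other programmes moved with the add-backs over the same libraries. Of 26 proliferation genes, 23 fell and 0 rose with s-PRDM16 (median −0.71), and 6 fell and 0 rose with f-PRDM16 (median −0.41). The summed level of these genes was 4712 to 5257 CPM in KO+s-PRDM16, 5437 to 6581 in KO+f-PRDM16, 7859 to 8460.1 in KO+EV and 6714 to 8417 in WT+EV cells. Of 24 immediate early genes, which answer growth and stress signals within minutes, 18 rose and 1 fell with s-PRDM16 (median 2.01), and 8 rose and 1 fell with f-PRDM16 (median 1.24). Without a library the s-PRDM16 counts ran over 17 to 22 for proliferation genes that fell and 13 to 19 for immediate early genes that rose. The f-PRDM16 counts ran over 0 to 9 for proliferation genes that fell, the 0 without KO+f-PRDM16 replicate 1. For immediate early genes that rose they ran over 3 to 7, the 3 without KO+f-PRDM16 replicate 1 or KO+EV replicate 2. Without KO+EV replicate 3, 19 proliferation genes fell and 19 immediate early genes rose with s-PRDM16, against 3 and 5 with f-PRDM16. In KO+EV against WT+EV cells 2 proliferation genes rose and 0 fell, and 0 to 1 rose when a library was left out. In the same comparison 6 immediate early genes fell and 0 rose (median −2.01), and 0 to 9 fell when a library was left out. Their summed level was 3997, 4237 and 6677 CPM in KO+s-PRDM16, 4749.9, 2329 and 1529 in KO+f-PRDM16, 1357, 598 and 2044 in KO+EV and 2753, 7497 and 7186 in WT+EV cells. Dnajb1 was lowest in the group with the lowest mean immediate early sum, and Hspd1 and Hspe1 were lowest in the group with the lowest proliferation sum. By library, KO+EV replicate 2 was lowest for both the immediate early sum and Dnajb1 (54.3 CPM). KO+f-PRDM16 replicate 3 had a lower immediate early sum than KO+EV replicate 3, 1529 against 2044 CPM, but more Dnajb1, 85.3 against 63.9 CPM. The part of these programmes, and of the granulocyte transcripts, in the chaperone differences was not tested.

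In adult marrow HSCs the libraries labelled KO and the WT libraries overlapped for each of the 10 chaperones. Of the 10 tested, 0 passed in edgeR and 0 in DESeq2, 4 had an unadjusted p under 0.05, and 0% of all 13495 genes passed in edgeR. The share of all genes under that unadjusted p is not given here, so the count of 4 is not read as a result about the members. Chordc1 had 162, 166, 141 and 203 CPM in libraries labelled KO and 98.5, 69.0, 103 and 142 CPM in WT libraries (log2 0.70 ± 0.21, adjusted p = 0.521). Dnaja1 had 150.4, 203, 165 and 225 CPM in libraries labelled KO and 111, 118, 122 and 160.0 CPM in WT libraries (0.54 ± 0.18, adjusted p = 0.532). Each of these 2 genes overlapped through the highest WT library, replicate 4. Dnajb1 had 260.4, 459, 448 and 373 CPM in libraries labelled KO and 461, 432, 877 and 638 CPM in WT libraries (−0.65 ± 0.25, adjusted p = 0.540). Hspd1 had 345, 362, 269 and 371 CPM in libraries labelled KO and 197, 209.8, 258 and 305 CPM in WT libraries (0.47 ± 0.18, adjusted p = 0.540). These 4 are the members with an unadjusted p under 0.05, and none of them passed when any 1 library was left out.

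Hspb1, rare in the other tables, was read in marrow HSCs at 17, 59, 3 and 69 counts (0.650, 2.12, 0.133 and 2.85 CPM) in libraries labelled KO and at 12, 55, 204 and 202 counts (0.472, 1.87, 8.11 and 7.76 CPM) in WT libraries. The highest libraries were WT replicates 3 and 4, and the difference did not pass (−1.67 ± 0.96, adjusted p = 0.634). The same 2 WT libraries were the highest WT libraries for Dnajb1 and for the inducible HSP70 genes. They were also the highest WT libraries for Hspa8, Dnaja1, Chordc1, Hspd1, Hspe1 and Hsph1, but not for Bag3, Hsp90aa1 or Hsp90ab1. Hspa1a had 5.43, 114, 40.9 and 111 CPM in libraries labelled KO and 17.7, 26.8, 378 and 283 CPM in WT libraries (−1.39, adjusted p = 0.734). Hspa1b had 10.2, 208, 80.4 and 214 CPM in libraries labelled KO and 20.8, 36.4, 566 and 460.4 CPM in WT libraries (−1.09, adjusted p = 0.790). Within a group the inducible genes thus differed many-fold between libraries. Hsph1 had the higher mean in libraries labelled KO, with 154, 205, 131 and 211 CPM there and 50.2, 58.1, 79.4 and 195 CPM in WT libraries. Its groups overlapped. The immediate early genes, by contrast, summed to 11876, 12365, 15094 and 12242 CPM in libraries labelled KO and 30059, 28741, 21501 and 12794 CPM in WT libraries, where replicates 3 and 4 were the lowest WT libraries. The proliferation genes summed to 4403, 5111, 4182 and 4856 CPM in libraries labelled KO and 3052, 4163, 4926 and 6235 CPM in WT libraries, rising with the WT replicate number. The part of the immediate early and proliferation genes in the chaperone values was not tested.

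The remaining members differed by −0.31 to 0.22 between libraries labelled KO and WT libraries (adjusted p = 0.780 to 0.914). Hspa8 had 1019 to 1579 CPM in libraries labelled KO and 729 to 1841 CPM in WT libraries, Bag3 14.9 to 25.8 CPM in libraries labelled KO and 20.3 to 24.4 CPM in WT libraries, and Hspe1 65.5 to 121 CPM in libraries labelled KO and 48.8 to 188 CPM in WT libraries. Hsp90ab1 had 1659 to 2241 CPM in libraries labelled KO and 1319 to 2231 CPM in WT libraries, and Hsp90aa1 had 229.7 to 494 CPM in libraries labelled KO and 252 to 415 CPM in WT libraries. By range, 0 of 10 members lay apart, where 5.82% of all genes did (3.07% above and 2.76% below). Hspa5, the endoplasmic reticulum HSP70 BiP, lay apart, with 1097, 1384, 1359 and 1236 CPM in libraries labelled KO and 1023, 995, 923 and 766 CPM in WT libraries, but did not pass (0.45 ± 0.14, adjusted p = 0.526).

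**Figure D4:**
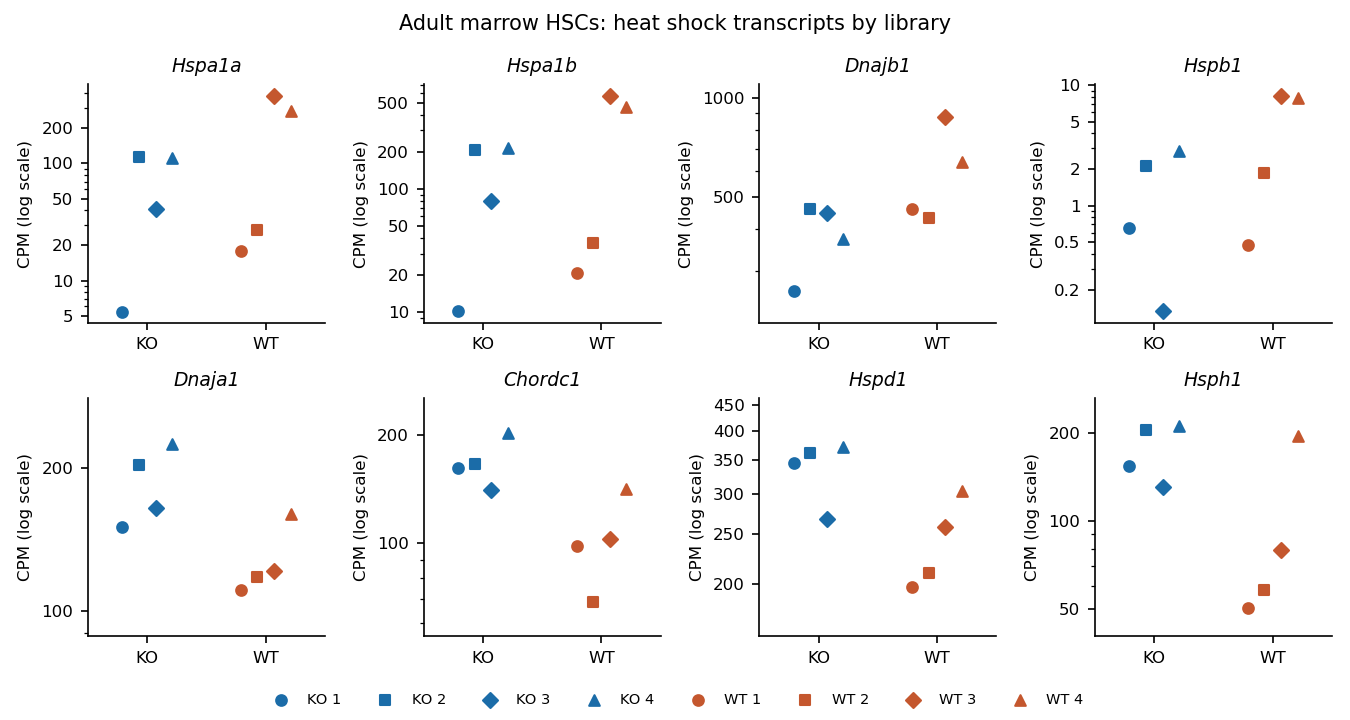
Level of 8 heat shock genes in adult marrow HSCs, in CPM on a log axis, for the 4 libraries labelled KO and the 4 WT libraries; symbols mark replicate numbers. Hspa1a spans 5.43 to 378 CPM and Hspb1 0.133 to 8.11 CPM, while Hspd1 spans 197 to 371 CPM.

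In fetal liver HSCs neither loss of total PRDM16 nor loss of f-PRDM16 alone was accompanied by a chaperone difference that passed. For either loss, 0 of 9 members passed in edgeR and in DESeq2, 0 had an unadjusted p under 0.05, and 0% of all genes passed in edgeR (15590 and 13631 tested). Libraries with the same replicate number deviated together in these tables, although neither library numbered 2 of the total-knockout table correlated best with its own number. Values are also given with the number as a block. In the total-knockout table the 8 members other than Hspb1 differed by −0.10 to 0.18 on the log2 scale (SE 0.0742 to 0.173, adjusted p = 1.00). With the block their SE fell to 0.0501 to 0.0671 and none passed (adjusted p = 0.190 to 0.960), although 176 of all genes did and 3 members, Hspa8, Hsp90aa1 and Hspd1, had an unadjusted p under 0.05. The share of all genes under that unadjusted p is not given here. In the order of replicate numbers the granulocyte markers summed to 771, 1495 and 13409 CPM in KO and 175, 276 and 1819 CPM in WT HSCs of the total-knockout table, and to 7839, 32178 and 47498 CPM in 47bpKO and 7276, 3497 and 21436 CPM in 47bpWT HSCs, higher with the knockout within each number. Their part in the chaperone values was not tested, and 0 members passed in edgeR in either table when any 1 library was left out.

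Hspd1 had 565, 574 and 439 CPM in KO and 482, 538 and 406 CPM in WT HSCs of the total-knockout table, in the order of replicate numbers. Hspa8 had 1871, 1897 and 1749.6 CPM in KO and 1729, 1824 and 1629.9 CPM in WT HSCs, and Hsp90aa1 had 626, 681 and 629 CPM in KO and 559.5, 617 and 602 CPM in WT HSCs. For these 3 genes KO was higher than WT within each of the 3 numbers, and the groups overlapped for Hspd1 and Hspa8 but not for Hsp90aa1. Dnajb1 had 135, 128 and 126 CPM in KO and 139, 139.9 and 148 CPM in WT HSCs, with every KO library below every WT library. By range 1 of 9 members lay above and 1 below, where 11% of all genes lay apart (3.67% above and 7.31% below). Dnaja1 had 267 to 308 CPM in KO and 272 to 317 CPM in WT HSCs, and Hsp90ab1 1596 to 1659 CPM in KO and 1462 to 1666 CPM in WT HSCs. Hspb1 had 14, 10 and 0 counts in KO and 19, 18 and 5 counts in WT HSCs, where a count of 0 allows up to 3.

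In the f-PRDM16-knockout table the 9 tested members, all but Hspb1, differed by −0.13 to 0.19 (SE 0.158 to 0.399, adjusted p = 0.999), and by −0.12 to 0.19 with the block (SE 0.0814 to 0.163, adjusted p = 0.433 to 0.964). For several members libraries with different numbers differed more than the genotypes did. Hspd1 had 1099, 607 and 571 CPM in 47bpKO and 965, 632 and 644 CPM in 47bpWT HSCs, and Hspe1 had 292, 156 and 113 CPM in 47bpKO and 260.1, 163 and 141 CPM in 47bpWT HSCs. Hspa8 had 1873, 988 and 941 CPM in 47bpKO and 1726, 1206 and 1181 CPM in 47bpWT HSCs. The libraries numbered 1 were highest in both groups for Hspa8, Hsp90aa1, Hsp90ab1, Chordc1, Hspd1 and Hspe1. Dnajb1 went the other way, with 140.1, 179 and 154 CPM in 47bpKO and 146, 221 and 185 CPM in 47bpWT HSCs, lowest at number 1 and lower in 47bpKO within each number. Bag3 had 12.1 to 14.01 CPM in 47bpKO and 13.2 to 16.9 CPM in 47bpWT HSCs, and Dnaja1 had 157 to 227 CPM in 47bpKO and 198 to 219 CPM in 47bpWT HSCs. By range 0 of 9 members lay apart, where 7.31% of all genes did (1.43% above and 5.88% below). Hspb1 had 4 counts in the 6 libraries.

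**Figure D5:**
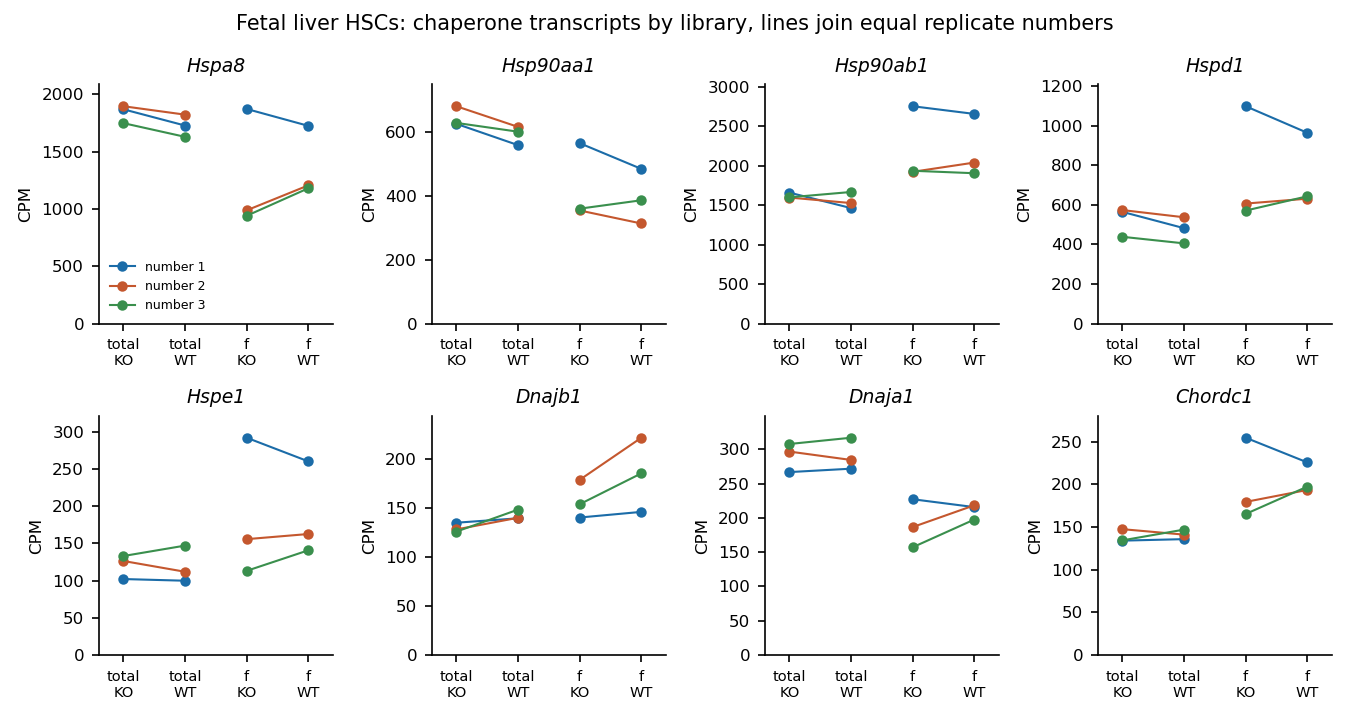
Level of 8 chaperones in fetal liver HSCs, in CPM, with KO left of WT in each table; points are libraries and lines join libraries with the same replicate number. Number 1 of the f-PRDM16-knockout table stands high for Hspd1 (1099 and 965 CPM) and low for Dnajb1 (140.1 and 146 CPM).

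Tests of the difference between knockout effects called no member. Between the total-knockout fetal effect and the adult marrow effect 0 of 9 members passed in edgeR and in DESeq2, 1 had an unadjusted p under 0.05, and 0.0123% of 16211 genes passed in edgeR (0.00617% in each direction). That member, Chordc1 (unadjusted p = 0.0281 in edgeR), ranked 675 of the 16211 genes by p. The interaction terms of the 8 members other than Hspb1 ran from −0.68 to 0.55 (adjusted p = 0.674 to 1.00). Between the f-PRDM16-knockout and total-knockout fetal effects 0 of 9 passed in edgeR and in DESeq2, 0 had an unadjusted p under 0.05, 0% of all genes passed in edgeR, and the terms of the 8 members other than Hspb1 ran from −0.18 to 0.01 (adjusted p = 1.00). The term of Hspb1 was 0.70 ± 1.68 in the first of these tests (adjusted p = 0.966) and −0.23 ± 1.15 in the other (adjusted p = 1.00).

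Across the 10 groups each chaperone had its own order of levels, which is given as a description because the 4 tables were counted separately and the HSC libraries were amplified by a low-input kit that the leukaemia libraries were not. Dnajb1 was highest in marrow HSCs, at 385 ± 91.7 CPM in libraries labelled KO and 602 ± 205 in WT libraries (n = 4 each), which overlapped. Below them came the fetal groups, from 129.5 ± 4.73 CPM in total-knockout KO to 184 ± 37.8 in 47bpWT HSCs, and then KO+s-PRDM16, WT+EV and KO+f-PRDM16 leukaemia cells, which overlapped at 78.5 to 96.9 CPM, with KO+EV apart at the bottom. Hspb1 was likewise highest in marrow HSCs. Hspa8 was highest in the total-knockout fetal table, at 1839 ± 78.6 CPM in KO and 1727 ± 96.9 in WT HSCs, and lowest in KO+s-PRDM16 leukaemia cells at 388 ± 72.4. Dnaja1 was highest in the same fetal table, at 291 ± 21.2 CPM in KO and 291 ± 23.3 in WT HSCs, and lowest in KO+EV leukaemia cells at 36.8 ± 7.18. Hspd1 was highest in the f-PRDM16-knockout fetal table, at 759 ± 295 CPM in 47bpKO and 747 ± 189 in 47bpWT HSCs, and lowest in KO+s-PRDM16 leukaemia cells at 115 ± 28.7, and Hspe1 had its highest and lowest groups in the same table and the same leukaemia group. Bag3 broke this pattern, with its highest mean in KO+s-PRDM16 leukaemia cells, at 28.4 ± 5.30 CPM, and its lowest in WT+EV leukaemia cells, at 13.1 ± 3.46. Hsp90ab1 varied least in relation to its level, from 1552 ± 104 CPM in total-knockout WT fetal HSCs to 2572 ± 235 CPM in KO+EV leukaemia cells.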

How the data were processed

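The tables are read counts per gene as deposited by the authors. Per the labels' protocols, leukaemia libraries used a TruSeq kit after poly-A selection and HSC libraries were amplified with a SMARTer Low Input kit. The submitters' processing notes name bcl2fastq 2.17, TopHat, DESeq and mm9, while the counter, annotation and strand are not given in the sources used here. Promoters came from RefSeq on GRCm38.p6, a build not mixed with the counts. The members and lists were chosen with earlier results of these data known.

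All columns were matched to samples by name, and no 2 libraries were duplicates. CPM was computed on library totals without 92 spike-in rows (0 counts in the marrow table, 1 in the f-PRDM16-knockout table). Each table was fitted whole with the quasi-likelihood model of edgeR 4.0.16 (R 4.3.3; TMM scaling, genes kept by filterByExpr, robust dispersion), with Benjamini-Hochberg adjustment over all genes tested, after a check on simulated data. Besides the members, Hsf1, Hspa1a, Hspa1b, Hsph1 and Hspa5, up to 4 genes per list and direction with the smallest p among those passing are named, except 1 that is not reported here. Alternatives were RLE size factors, no low-count filter, DESeq2 1.42.0, a replicate block, only the 2 groups compared, each library left out and, chosen after seeing the data, both libraries of a number left out and the lists without each leukaemia library. Same-numbered libraries deviated together in both fetal tables (correlation 0.309 to 0.713 and 0.437 to 0.685), a pairing that comes from the data and not from the labels. Floors for a count of 0 cover counting error only.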

Additional observations from a re-analysis of the deposited data

Results flagged for a closer look

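Of 32 sets of 4 libraries tested in adult marrow HSCs for a value far from the others, 1 stood out. Hsf1, the heat shock factor, had 67.5 CPM in the library labelled KO replicate 2, against 84.6, 82.7 and 83.2 CPM in the other libraries labelled KO and 88.7, 109.6, 77.6 and 89.0 CPM in WT libraries. Chance alone flags about 1 in 20 such sets. The heat-inducible genes Hspa1a and Hspa1b had 114 and 208 CPM in that library.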

How the results depend on the processing

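With RLE size factors no member and no count crossed the threshold or moved by over 1.5 times. DESeq2 called 914 genes in KO+EV against WT+EV, 2225 genes and 2 members in KO+f-PRDM16 against KO+EV, 1377 genes in KO+s-PRDM16 against KO+f-PRDM16, 86 in adult marrow, 70 in total-knockout and 4 in f-PRDM16-knockout fetal HSCs, and 22 between the total-knockout fetal and marrow effects. With no low-count filter 0 members passed in KO+f-PRDM16 against KO+EV and 0 in KO+EV against WT+EV. With only the 2 groups compared in the fit, 392 genes and 0 members passed in KO+f-PRDM16 against KO+EV, 1 gene and 0 members in KO+EV against WT+EV, and 1 member in KO+s-PRDM16 against KO+f-PRDM16. Correlations between same-numbered libraries were lower in leukaemia and marrow (−0.198 to 0.301 and −0.0255 to 0.216) than in the fetal tables. Some libraries there correlated best with their own number and others did not. As a replicate block there, the numbers moved Bag3 to adjusted p = 0.0526 and Hsp90ab1 to 0.0488 in KO+s-PRDM16 against KO+EV in edgeR. They changed no other call of a member. In the total-knockout fetal table the block gave 176 genes, and between the total-knockout fetal and marrow effects 0. Leaving out both libraries of a number gave 40 genes without number 3 in the total-knockout and 2 without number 1 in the f-PRDM16-knockout fetal table. Leaving out each library in turn, genes called ran over 26 to 425 in KO+EV against WT+EV, 559 to 1533 in KO+f-PRDM16 and 2732 to 3821 in KO+s-PRDM16 against KO+EV, 37 to 388 in KO+s-PRDM16 against KO+f-PRDM16, 0 to 3 in marrow and 0 to 4 between the total-knockout fetal and marrow effects; members called ran over 0 to 1, 0 to 1 and 2 to 5 in the first 3. Log2 differences that changed sign did not pass in any such fit. In marrow these were Hspa8 (−0.014 and −0.052 without numbers 1 and 2; −0.057 to 0.43 without a library), Bag3 (0.024 without number 3; −0.20 to 0.049), Hsp90ab1 (−0.040 without number 1; −0.065 to 0.18) and Hspe1 (−0.57 to 0.026). In KO+EV against WT+EV they were Hsp90aa1 (−0.14 to 0.32) and Chordc1 (−0.20 to 0.12), and in KO+s-PRDM16 against KO+f-PRDM16 Hspa8 (−0.088 to 0.19), Hsp90aa1 (−0.11 to 0.32) and Hspe1 (−0.25 to 0.012). The causes were not tested. Hspb1 at 0 to 8.11 CPM is limited by depth.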
